A study of Homo sapiens with 10 samples.

Results

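CISH and SOCS1 to SOCS7 are the 8 genes of the suppressor of cytokine signalling family. They were picked by the symbol that follows each gene identifier in the gene tables of all 10 libraries, which hold 58381 gene rows. All 8 were among the 15554 genes that passed the filter on low counts and were tested.

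Proteins of this family carry an SH2 domain, which binds phosphorylated tyrosines, and a SOCS box, which recruits a ubiquitin ligase built on elongins, a cullin and a RING protein. Cytokines bind receptor chains, receptor-associated JAK kinases phosphorylate STAT factors, and STAT factors switch on CISH, SOCS1, SOCS2 and SOCS3, whose products then restrain the same receptors and kinases. SOCS4 to SOCS7 are less dependent on cytokines and are known mainly for binding receptor tyrosine kinases and their adaptors. Gastrointestinal stromal tumour is a mesenchymal tumour usually driven by the receptor tyrosine kinase KIT, a kind of receptor that family members are known to bind.

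The libraries are poly(A) RNA-seq of GIST-T1, a cell line from a metastasis of such a tumour that has intact succinate dehydrogenase. Wild-type GIST-T1 served as control, and 4 derivatives, labelled InsE, InsF, InsG and InsH, carry disruptions of CTCF insulators, DNA elements at which the CTCF protein separates chromosome neighbourhoods. Each of the 5 groups has 2 libraries. The labels do not say which element or edit each letter stands for, whether a derivative is 1 clone, or whether replicates were separate cultures, and the p-values cover no more than the spread between these libraries.

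Replicate 1 was the deeper library in each group, with 22912425 to 42499885 counts against 9399554 to 20078653 for replicate 2. The 2 control libraries were closer to each other, at a chi-square per degree of freedom of 1.39 over genes, than replicates of the lines, at 6.59 to 7.69. If the controls were technical repeats of 1 culture, which the labels do not settle, p-values against control would be too small, so calls with the control libraries summed into 1 are given with the results. FGF3, a growth factor gene, had no counts in either control library, which allows up to 0.154 CPM (counts scaled to library size) in the shallower one (3 counts, counting error only), and had 5.33 to 36.3 CPM on average in the lines. All 7 markers of this tumour type were present, at a summed 3380 to 3390 TPM (scaled to transcript length and library size) in control and 2540 to 2700 TPM in the lines. Of the markers of other cells, the 6 reported here for blood, 6 of 6 for epithelium and 5 of 5 for endothelium stayed under 1 TPM in each library. The pan-leukocyte marker PTPRC reached at most 0.02 TPM and HBB was listed at 0. The summed level of those 6 blood markers was 0.11 to 0.30 TPM in control and 0 to 0.59 TPM in the lines, and the part of these markers in the results was not tested.

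The sequence in front of CISH is shown first because it holds 4 copies of the 9-letter motif TTCNNNGAA. STAT dimers are known to bind this core. CISH is also the member called lower in each line with edgeR, though with the DESeq2 test only in InsG and with limma on TPM in no line. The motif is its own reverse complement, so both strands were read at once. Capitals mark the matches, and the stretches come from the RefSeq promoter window (250 bases before to 50 after the start, assembly GRCh38.p14, minus strand). The first lies at chr3:50611991-50612020 and the second at chr3:50611835-50611907. Both are within the annotated span of the neighbouring gene MAPKAPK3, which lies on the other strand.
CISH upstream pair: ccgttTTCCTGGAAagTTCTTGGAAatctg
CISH downstream pair: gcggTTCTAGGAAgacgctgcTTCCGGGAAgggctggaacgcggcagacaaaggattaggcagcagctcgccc
Of 35116 windows of 300 bases, 2689 (7.66%) hold at least 1 match and 7 (0.0199%) hold 4, which is the most in any window. Those 7 windows belong to 6 gene symbols: CISH, BCL6, LOC124907892, ZNF112, ZNF225 and ZNF225-AS1. BCL6 is a repressor that STAT5 is known to regulate. For comparison, the 250 bases before the SOCS1 start hold no match, at chr16:11256205-11256454 on the minus strand.
SOCS1: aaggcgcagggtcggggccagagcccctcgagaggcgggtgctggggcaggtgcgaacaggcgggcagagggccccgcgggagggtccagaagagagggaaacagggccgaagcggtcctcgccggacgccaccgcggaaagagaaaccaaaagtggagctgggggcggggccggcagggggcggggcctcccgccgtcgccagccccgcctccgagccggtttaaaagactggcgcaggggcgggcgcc
The windows of SOCS3, SOCS4 and SOCS6 hold no match either, which says only that these letters are not in those 300 bases. SOCS2, SOCS5 and SOCS7 have no window in the table used.

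In control cells, levels per transcript length ran from 21.4 TPM ± 0.17 (SD, n = 2) for SOCS5 down to 3.98 ± 0.34 for SOCS3. Between them stood SOCS1 at 16.5 ± 0.58, SOCS4 at 12.6 ± 1.66, SOCS2 at 11.7 ± 0.12 and SOCS6 at 9.76 ± 0.41 TPM. CISH followed at 5.64 ± 0.47 TPM and SOCS7 at 5.37 ± 0.09 TPM. The libraries of SOCS4 and SOCS2 overlapped, as did those of CISH and SOCS7, so neither order within those pairs is set. SOCS2 held the fourth place in control and moved in the lines: it was the fifth in InsE at 4.53 ± 0.51 TPM and the second in InsF (14.3 ± 1.86), InsG (14.2 ± 2.48) and InsH (16.0 ± 2.17). In each of these 4 lines its libraries overlapped those of the next member down. SOCS5 had the highest mean TPM and SOCS3 the lowest in each of the 5 groups, though SOCS5 overlapped SOCS2 in InsH and SOCS3 overlapped CISH in InsE and InsG.

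**Figure D1:**
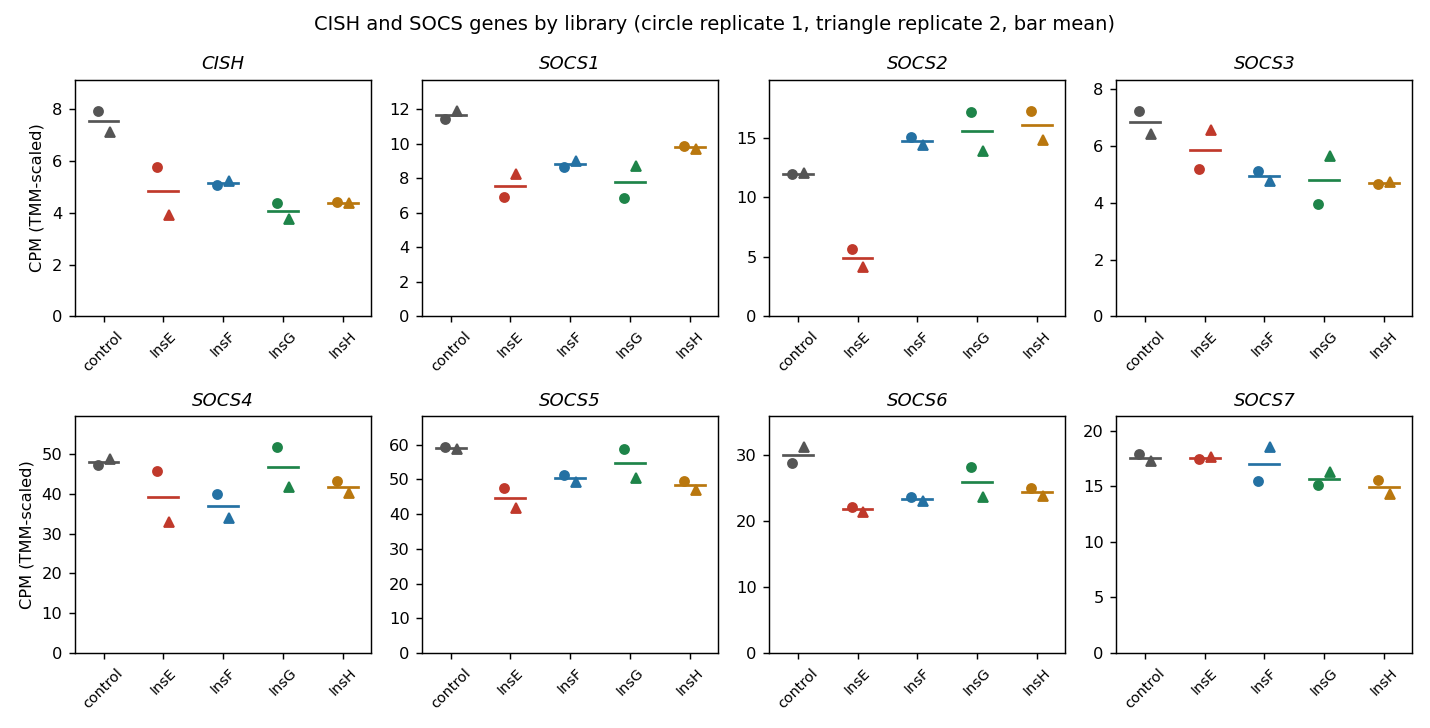
CPM (vertical axes, from 0) of the 8 family members in each library, with circles for replicate 1, triangles for replicate 2 and a line at the group mean. SOCS2 is low in both InsE libraries (5.67 and 4.13 CPM) and at or above 13.87 CPM in all InsF, InsG and InsH libraries, while CISH, SOCS1 and SOCS6 lie below both control libraries in all 8 line libraries.

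CISH, the founding member, is a STAT5-induced inhibitor of receptors such as those for erythropoietin and interleukin 2. The gene lies at chr3:50606490-50611831 on the minus strand (hg38, GENCODE 29). Control libraries had 7.95 and 7.13 CPM of CISH. InsE had 5.76 and 3.91 CPM, InsF 5.07 and 5.25, InsG 4.39 and 3.76, and InsH 4.40 and 4.39. All 8 line libraries were below both control libraries. With edgeR and TMM scaling, CISH was the one member called lower in each of the 4 lines at an adjusted p under 0.05, a pattern that 4.23% of all tested genes shared. The log2 change was -0.59 (SE 0.17, edgeR adjusted p = 0.0362) in InsE and -0.55 (SE 0.17, adjusted p = 0.0435) in InsF. It was -0.86 (SE 0.17, edgeR adjusted p = 0.0076) in InsG and -0.78 (SE 0.18, adjusted p = 0.0137) in InsH. Over the mean of the lines CISH fell by 38.3% (log2 -0.70, SE 0.13, edgeR adjusted p = 0.00361). No difference among the lines passed the test (edgeR adjusted p = 0.501). The DESeq2 test lost the CISH calls in InsE (adjusted p = 0.16), InsF (0.219) and InsH (0.0648). Limma on TPM lost those in InsE (adjusted p = 0.0846), InsF (0.144), InsG (0.0529) and InsH (0.0714). Library sizes alone lost InsE (edgeR adjusted p = 0.0501) and InsF (0.0613). In bulk RNA, fewer cells that express a gene and less RNA per cell cannot be told apart.

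The InsE call for CISH was lost without control replicate 1 (edgeR adjusted p = 0.204), control replicate 2 (0.1), InsE replicate 2 (0.132), InsF replicate 1 (0.0523) or InsH replicate 1 (0.0506). The InsF call was lost without either control (0.248 and 0.115), either InsF (0.176 and 0.117) or either InsH library (0.0562 and 0.0557), and the InsH call without either control (0.114 and 0.056) or either InsH library (0.0787 and 0.0561). Without control replicate 1 the InsG call and that of the mean were also lost, at edgeR adjusted p = 0.0769 and 0.0815. With the control libraries summed into 1, the calls in InsE (edgeR adjusted p = 0.123), InsF (0.143) and InsH (0.0657) were lost. MAPKAPK3, a kinase gene on the opposite strand, shares 218 of the 5112 exon bases of CISH. It had 18.3 CPM in control and 14.1 to 15.3 CPM on average in the lines, and was lower over their mean (log2 -0.34, SE 0.098, edgeR adjusted p = 0.0305). Its value was not computed under the alternatives, and its part in the CISH result was not tested. The strand setting of the counting is not given in the sources used here, so reads of the shared bases cannot be told apart.

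SOCS1, which inhibits JAK kinases directly through a kinase inhibitory region, lies at chr16:11254405-11256200 on the minus strand. It had 11.4 and 11.9 CPM in the control libraries. InsE had 6.88 and 8.25 CPM, InsF 8.63 and 9.01, InsG 6.87 and 8.68, and InsH 9.88 and 9.69. As with CISH, no line library reached the lower control library. SOCS1 fell in InsE (log2 -0.65, SE 0.13, edgeR adjusted p = 0.00696), in InsF (-0.41, SE 0.13, adjusted p = 0.0476) and in InsG (-0.62, SE 0.13, adjusted p = 0.0093). In InsH the log2 change was -0.25 (SE 0.13) and did not pass (edgeR adjusted p = 0.211). Over the mean of the lines it fell by 28.5% (log2 -0.48, SE 0.10, edgeR adjusted p = 0.00585), and the lines did not differ among themselves past the threshold (adjusted p = 0.166). With a replicate block the lines did differ (edgeR adjusted p = 0.0359). The InsF call was lost with limma on TPM (adjusted p = 0.128), the DESeq2 test (0.24) and library sizes alone (edgeR adjusted p = 0.0751).

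Leaving out a control library ended several of these SOCS1 calls, and summing the controls into 1 ended those of InsF (edgeR adjusted p = 0.156), InsG (0.0534) and the mean (0.0541). The mean was lost without control replicate 1 (edgeR adjusted p = 0.0611) or replicate 2 (0.0728), the InsE call without control replicate 2 (0.0511) or InsE replicate 1 (0.0882), and the InsG call without either control (0.0573 and 0.0667) or InsG replicate 1 (0.122). The InsF call was lost without either control (0.156 and 0.189), either InsF (0.186 and 0.111) or either InsH library (0.0569 and 0.0596). RMI2, a gene of genome maintenance on the opposite strand, spans SOCS1 but shares 0 exon bases with it, and in InsE it had a log2 change of 0.32 (SE 0.095, edgeR adjusted p = 0.0356), not computed under the alternatives.

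SOCS2, best known as the inhibitor of growth hormone receptor signalling, showed the largest difference of the family. The gene lies at chr12:93569814-93583487 on the plus strand. Both control libraries had close to the same level, 11.9 and 12.0 CPM (356 and 234 counts). InsE had 5.67 and 4.13 CPM (177 and 39 counts), below every other library. InsF had 15.05 and 14.4 CPM, InsG 17.2 and 13.9, and InsH 17.3 and 14.8, all above both control libraries. The 3 sets of levels, InsE, control and the other lines, did not overlap. The share of all tested genes that separate in this way was not counted, so how common it is cannot be said. In InsE SOCS2 fell by 56.9% against control (log2 -1.22, SE 0.16, edgeR adjusted p = 0.000602). The log2 change to control was 0.30 in InsF (SE 0.14), 0.40 in InsG (SE 0.14) and 0.43 in InsH (SE 0.14), and none of these passed (edgeR adjusted p = 0.148, 0.0641 and 0.0556). All 3 passed with a replicate block, at edgeR adjusted p of 0.0276 in InsF, 0.00461 in InsG and 0.00389 in InsH. Same-numbered replicates did not pair between control and the lines (correlation of deviations 0.0029 to 0.043). Block calls against control, here and below, thus rest on a pairing that these libraries did not show. InsG and InsH also passed on library sizes alone (0.0406 and 0.0348) and without the filter on low counts (edgeR adjusted p = 0.0149 and 0.0115). Without InsE replicate 1 their adjusted p was 0.0448 and 0.0408 (edgeR), without InsE replicate 2 it was 0.045 and 0.0401, and without InsG replicate 2 it was 0.0368 and 0.0429. Without InsG replicate 1 the InsH value alone passed (0.0497).

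Set against the mean of InsF, InsG and InsH, SOCS2 in InsE stood at 0.331 times their level (log2 -1.59, SE 0.14, edgeR adjusted p = 4.46e-05). The difference among the 4 lines passed as well (edgeR adjusted p = 0.00039). Each of the 3 pairs that hold InsE passed: the log2 difference was -1.52 to InsF, -1.62 to InsG and -1.65 to InsH (edgeR adjusted p = 0.000176, 0.000158 and 0.000162). None of the pairs without InsE passed (edgeR): between InsF and InsG the log2 difference was -0.10 (95% interval -0.40 to 0.20), between InsF and InsH -0.13 (-0.44 to 0.18), and between InsG and InsH -0.03 (-0.34 to 0.27). Over the mean of all 4 lines the opposite signs left a log2 change of -0.02 (SE 0.11, edgeR adjusted p = 0.919), whose sign turned on library sizes alone (0.04). The InsE difference held within each replicate number: InsE minus control was -1.06 in replicate 1 and -1.52 in replicate 2 on the log2 CPM scale. It also kept its call in all 10 fits that left out a library, at log2 changes of -1.54 to -1.07 and edgeR adjusted p of 0.000546 to 0.00814.

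**Figure D2:**
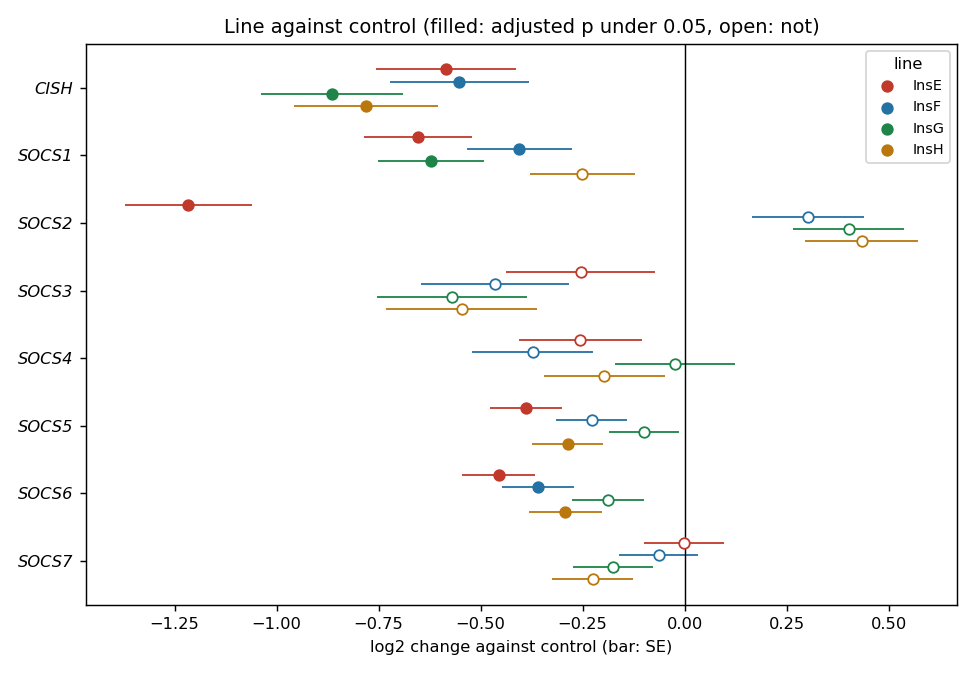
Log2 change of each family member in each line against control (horizontal axis, bars for 1 SE), filled where the edgeR adjusted p was under 0.05 and open where it was not. The filled points all lie below 0, and SOCS2 stands at -1.22 in InsE and at 0.30 to 0.43, unfilled, in the other lines.

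SOCS2 overlaps its antisense RNA gene SOCS2-AS1 on the other strand over 277 exon bases. SOCS2-AS1 was too low to be tested, with 9 counts in control, then 5 (InsE), 14 (InsF), 18 (InsG) and 14 (InsH), summed over both libraries of each group. Its 60 counts in all stand beside 2925 for SOCS2. The pseudogenes SOCS2P1 and SOCS2P2 had 0 counts.

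SOCS3 is the inhibitor induced by STAT3 that binds the shared receptor chain gp130, the product of IL6ST. The gene lies at chr17:78356778-78360077 on the minus strand. Control libraries had 7.24 and 6.41 CPM, InsE 5.19 and 6.56, InsF 5.11 and 4.78, InsG 3.95 and 5.64, and InsH 4.66 and 4.72 CPM. One InsE library lay between the controls, and the other 7 line libraries lay below both. With TMM scaling, the filter and no block, no single line passed. Log2 changes ran from -0.26 (SE 0.18, edgeR adjusted p = 0.351) in InsE to -0.57 (SE 0.18, adjusted p = 0.0545) in InsG. A replicate block called InsF (edgeR adjusted p = 0.0392), InsG (0.0112) and InsH (0.0234) lower. Without the filter InsG (edgeR adjusted p = 0.0243) and InsH (0.0379) passed. The mean of the lines fell by 27.3% (log2 -0.46, SE 0.14, edgeR adjusted p = 0.0345). Limma on TPM (adjusted p = 0.149) and library sizes alone (edgeR adjusted p = 0.0542) did not call the mean. The call of the mean was also lost with the DESeq2 test (adjusted p = 0.159). It was lost as well without control replicate 1 (log2 -0.36), control replicate 2 (-0.54), InsE replicate 1 (-0.42), InsF replicate 2 (-0.45) or InsH replicate 1, and with the controls summed (-0.48). The InsG change passed without InsE replicate 1, InsE replicate 2 or InsG replicate 2 (edgeR adjusted p = 0.0478, 0.0473 and 0.0206) and the InsH change without either InsG library (0.0374 and 0.0413).

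SOCS4 and SOCS5 are a closely related pair known for acting on the epidermal growth factor receptor. SOCS4, at chr14:55027230-55049488 on the plus strand, had 47.3 and 48.8 CPM in control and 32.8 to 51.7 CPM over the line libraries. With TMM scaling, the filter and no block it passed in no line. Its mean log2 change was -0.21 (SE 0.12, edgeR adjusted p = 0.203). Without the filter it passed in InsE (edgeR adjusted p = 0.0197), InsF (0.000359), over the mean (0.0116) and among the lines (0.00835). With a replicate block it passed in InsF (edgeR adjusted p = 0.0102) and over the mean (0.0376). Without InsE replicate 1 the mean passed (edgeR adjusted p = 0.0493), and in InsF, where the log2 change was -0.37 (adjusted p = 0.105), it passed without InsE replicate 1 or 2 (0.0458 and 0.0449). The sign in InsG depended on the setting, at a log2 change of -0.02 with TMM scaling, 0.03 on library sizes alone and 0.11 without InsG replicate 2 (edgeR).

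SOCS5, at chr2:46698952-46780245 on the plus strand, had 59.2 and 58.9 CPM in control. InsE had 47.5 and 41.9 CPM, InsF 51.4 and 49.3, InsG 58.9 and 50.5, and InsH 49.6 and 47.1. InsG replicate 1 lay between the controls, and the other 7 line libraries lay below both. SOCS5 fell in InsE (log2 -0.39, SE 0.09, edgeR adjusted p = 0.0113), in InsH (-0.29, SE 0.09, adjusted p = 0.0471) and over the mean (-0.25, SE 0.07, adjusted p = 0.0202). Limma on TPM lost InsE (adjusted p = 0.0745), InsH (0.396) and the mean (0.222), and the DESeq2 test lost InsH (0.0786). Library sizes alone lost InsH (edgeR adjusted p = 0.0993) and the mean (0.0552). InsF passed without the filter (edgeR adjusted p = 0.0396) and with a replicate block (0.00631). The mean was lost without control replicate 1 (edgeR adjusted p = 0.165) or 2 (0.146), and the InsE call without either of these (0.0762 and 0.0741) or InsE replicate 2 (0.0693). The InsH call was lost without either control (0.2 and 0.182), either InsF (0.062 and 0.0596) or either InsH library (0.112 and 0.172). With the controls summed the InsE call (edgeR adjusted p = 0.0731), the InsH call (0.179) and the mean (0.141) were lost. LINC01118, a noncoding gene on the same strand that overlaps SOCS5, had 8 counts in all.

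SOCS6, which is known to bind activated KIT and to direct its ubiquitination, lies at chr18:70288901-70330200 on the plus strand. It had 28.8 and 31.2 CPM in control. InsE had 22.1 and 21.4 CPM, InsF 23.6 and 23.0, InsG 28.1 and 23.6, and InsH 24.98 and 23.8. All 8 line libraries were below both controls, InsG replicate 1 by the least. SOCS6 fell in InsE (log2 -0.46, SE 0.09, edgeR adjusted p = 0.00616), InsF (-0.36, SE 0.09, adjusted p = 0.0171) and InsH (-0.29, SE 0.09, adjusted p = 0.0484), and by 20.1% over the mean (log2 -0.32, SE 0.07, adjusted p = 0.00682). In InsG its log2 change of -0.19 (SE 0.09) did not pass (edgeR adjusted p = 0.159). With limma on TPM the InsF call (adjusted p = 0.21), the InsH call (0.424) and the mean (0.125) were lost. The DESeq2 test lost InsF (adjusted p = 0.0673) and InsH (0.186), and library sizes alone lost InsH (edgeR adjusted p = 0.0991). With a replicate block InsE was called lower than the other lines (edgeR adjusted p = 0.0499). Without control replicate 2 the mean (edgeR adjusted p = 0.114) and the InsE call (0.0639) were lost. The InsF call was lost without either control (0.0572 and 0.131) or either InsF library (0.0719 and 0.0749), and the InsH call without either control (0.113 and 0.254) or any InsE, InsF or InsH library (0.0601 to 0.166). With the controls summed the InsF call (edgeR adjusted p = 0.0823), the InsH call (0.167) and the mean (0.0645) were lost.

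SOCS7, a partner of adaptor and cytoskeletal proteins that lies at chr17:38352228-38405593 on the plus strand, passed in no comparison. It had 17.9 and 17.2 CPM in control and 14.3 to 18.5 CPM over the line libraries, and 1 of these 8 was above both controls. Its log2 changes ran from -0.0019 in InsE to -0.23 (SE 0.10, edgeR adjusted p = 0.15) in InsH, with -0.12 (SE 0.08, adjusted p = 0.288) over the mean. The sign in InsE turned on library sizes alone (0.05).

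The length that RSEM, the counting program, used for a gene is the abundance-weighted mean of its isoforms and can differ between libraries. It was fixed at 2734 bases for SOCS3 but ran from 4067 to 6540 bases (1.61-fold) for SOCS4 and from 4191 to 6544 bases (1.56-fold) for SOCS7. InsH replicate 2 had the highest TPM of SOCS4, 15.8, at the shortest length, while its 40.3 CPM was below both controls. InsF replicate 2 had both the highest TPM (7) and the highest CPM (18.5) of SOCS7, at the shortest length for that gene. In InsE SOCS7 had 17.5 and 17.7 CPM, within the spread of the control libraries by counts, but 4.25 and 4.09 TPM beside 5.30 and 5.43 TPM in control.

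**Figure D3:**
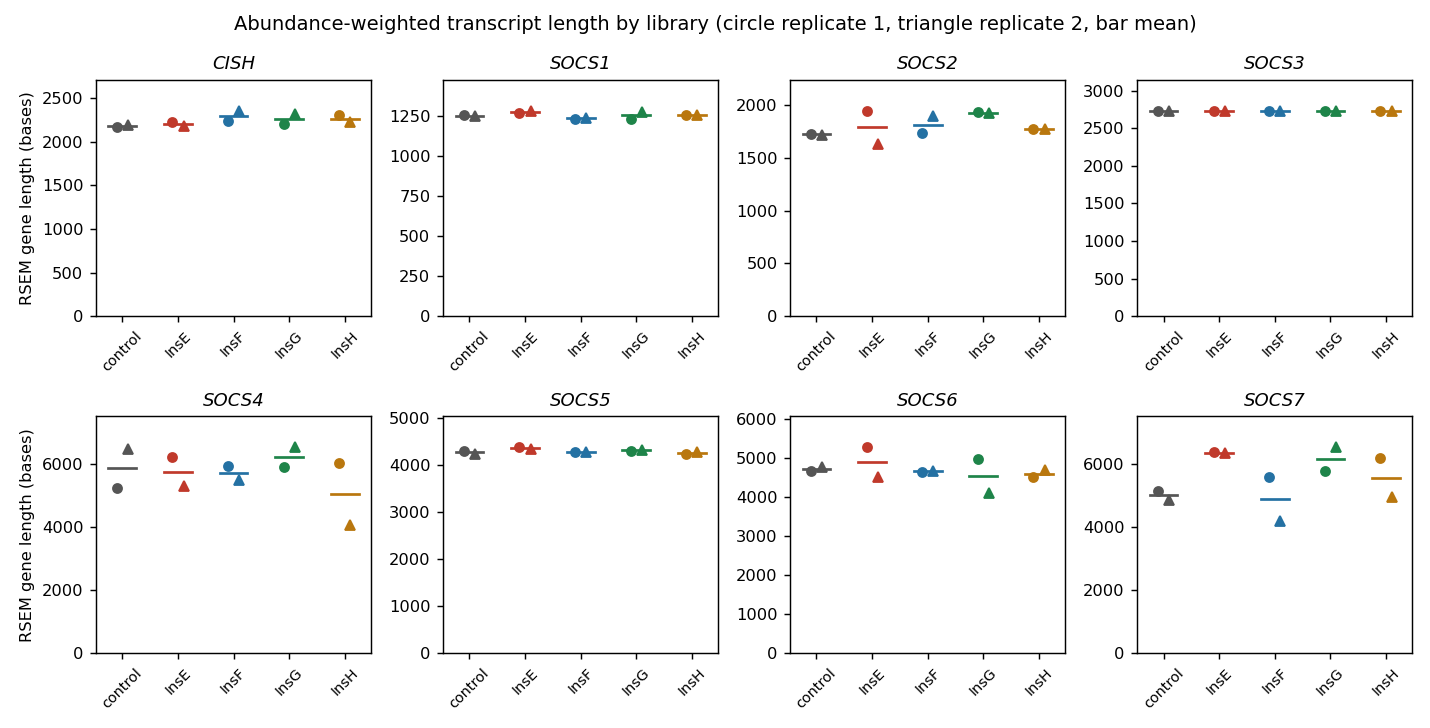
RSEM gene length in bases (vertical axes, from 0) of each member by library, with circles for replicate 1, triangles for replicate 2 and a line at the group mean. SOCS3 sits at 2734 bases in each library, while SOCS4 and SOCS7 spread over 1.61-fold and 1.56-fold ranges.

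Counted over the family, members called lower numbered 5 of 8 in InsE, where 23.2% of all tested genes were called and 12.4% were called lower (10.8% higher). In InsF it was 3 of 8, with 22.3% of all genes called and 11.3% lower (10.9% higher). In InsG 2 of 8 were called, with 20.3% of all genes called and 10.5% lower (9.86% higher), and in InsH 3 of 8, with 18.4% called and 9.46% lower (8.95% higher). With TMM scaling and no block, edgeR called 0 members higher in the lines, with SOCS2 at an unadjusted p under 0.05 in InsG and in InsH. SOCS2 was called higher in the other edgeR fits given above, while the DESeq2 test and limma on TPM called 0 higher. Over the mean of the lines 5 of 8 members (CISH, SOCS1, SOCS3, SOCS5 and SOCS6) were called lower, with 27.6% of all genes called, 14.5% lower and 13.1% higher. The median log2 change of the members was -0.29 there, beside 0.01 over all tested genes. CISH, SOCS1 and SOCS6 were called lower in at least 3 lines, as were 8.02% of all genes, and the same 3 had all 8 line libraries below both controls, as did 14.7% of all genes (13.3% had all 8 above). In the comparison of InsE with the mean of the other lines, 1 of 8 members passed, with 24.2% of all genes called, 12.8% lower and 11.4% higher. Among the lines 1 of 8 passed, with 13.2% of all genes.

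These line comparisons share the same 2 control libraries, so they are not independent of each other. Without control replicate 1 the members called (edgeR) were 3 in InsE, 0 in InsF, InsG and InsH, and 1 over the mean, with 2, 2 and 3 at an unadjusted p under 0.05 where none was called. Without control replicate 2 InsE and InsG had 1 each, InsF and InsH 0, and the mean 1, with 4 at an unadjusted p under 0.05 in InsF and in InsH. With the controls summed InsE kept 3 (SOCS1, SOCS2 and SOCS6), InsG 1 (CISH) and the mean 1 (CISH), and InsF and InsH had 0, with 3 and 5 at an unadjusted p under 0.05. A control group of 1 library is in these fits assumed to vary like the other groups. The count for the difference among the lines stayed at 1, SOCS2, in each fit that left out a library. With the DESeq2 test InsE had 4 members called, InsG 2, the mean 4, and InsF and InsH 0 (3 and 4 at an unadjusted p under 0.05).

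**Figure D4:**
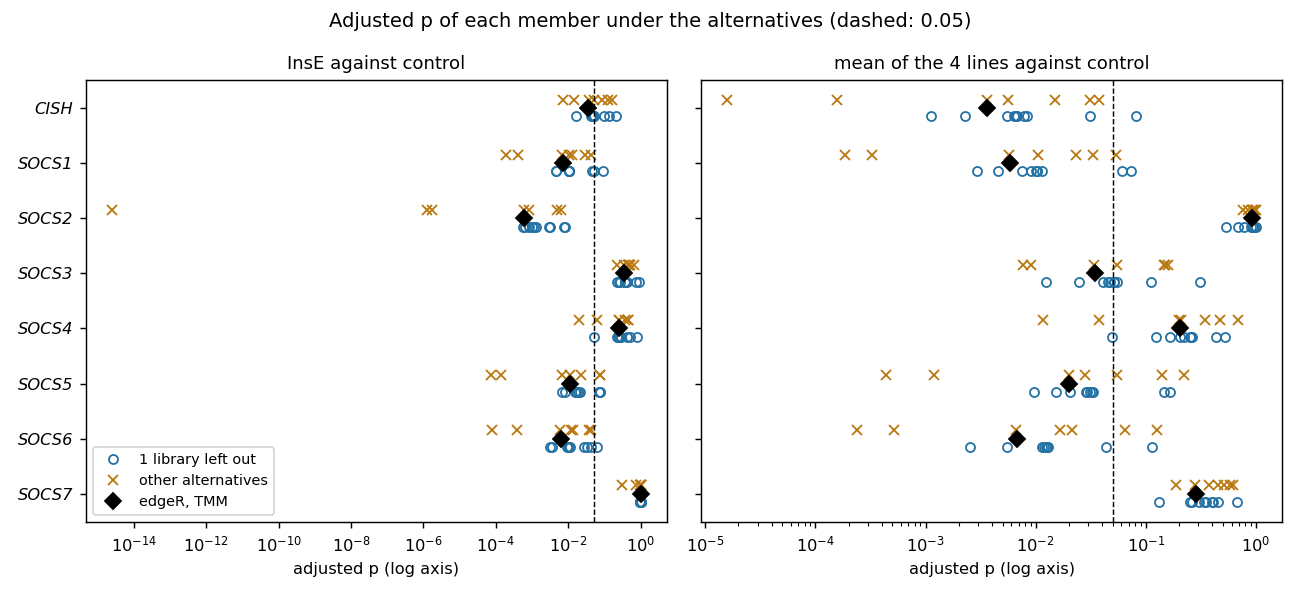
Adjusted p of each member (horizontal log axis, dashed line at 0.05) for InsE against control and for the mean of the 4 lines, marked by a diamond for edgeR with TMM scaling, circles for fits without 1 library and crosses for the other alternatives. For InsE, SOCS2 keeps every point left of the line, its circles at 0.000546 to 0.00814, and the other called members have points on both sides.

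The genes around the family were followed through 9 lists of the pathway. Their counts stand beside 13.1% of all tested genes called higher and 14.5% lower over the mean of the lines, and 11.4% higher and 12.8% lower in InsE against the mean of the other lines. Among the JAK kinases and STAT factors, 1 of the 8 tested genes reported here rose and 1 fell over the mean of the lines. JAK1, the kinase shared by most of these receptors, fell from 381 CPM in control to 294 to 345 CPM in the lines (log2 -0.24, SE 0.04, edgeR adjusted p = 0.000933), a call lost with limma on TPM (adjusted p = 0.0856). JAK2, the kinase of the erythropoietin and growth hormone receptors, rose (log2 0.49, SE 0.16, edgeR adjusted p = 0.0449), a call that was lost without control replicate 1 (0.183), control replicate 2 (0.283), InsE replicate 1 (0.0837), InsF replicate 1 (0.0755), InsG replicate 1 (0.0607), InsG replicate 2 (0.0652) or InsH replicate 1 (0.0502), with the DESeq2 test (0.106), with limma on TPM (0.192) and with the controls summed (0.212). Against the other lines 2 of the 8 were lower in InsE and 0 higher. One was JAK1 (log2 -0.18, SE 0.04, edgeR adjusted p = 0.00842), a call lost without InsE replicate 1 (0.052) or InsE replicate 2 (0.0907). The other was STAT3, a factor activated by interleukin 6 family receptors, at 66.3 CPM in InsE, 80.8 in control and 86.5 to 93.1 in the others (InsE against their mean log2 -0.43, SE 0.05, edgeR adjusted p = 0.000319).

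Of the cytokine receptor chains, 5 of 22 tested genes rose and 5 fell over the mean of the lines (13.1% and 14.5% of all genes). EPOR, the erythropoietin receptor that CISH is known to inhibit, fell from 6.74 CPM in control to 4.21 to 4.94 CPM (log2 -0.59, SE 0.13, edgeR adjusted p = 0.00999), and was lost without control replicate 1 (0.17). IL10RA, a chain of the interleukin 10 receptor, fell (log2 -0.98, SE 0.20, edgeR adjusted p = 0.00596), and was lost without control replicate 2 (0.0904). Both calls were also lost with the DESeq2 test (adjusted p = 0.0579 for EPOR and 0.0753 for IL10RA), with limma on TPM (0.161 and 0.328, IL10RA at a log2 change of -0.17) and with the controls summed (0.0667 and 0.0521). In InsE against the other lines 7 of 22 were lower and 1 higher, where 12.8% of all genes were lower and 11.4% higher. One of the 7 was IL6ST, the gp130 chain that SOCS3 binds, at 310 CPM ± 34 (SD, n = 2) in InsE and 431 to 485 CPM in the other lines (log2 -0.54, SE 0.08, edgeR adjusted p = 0.00131). IL13RA1, a receptor chain for interleukins 4 and 13, was also lower there (log2 -0.40, SE 0.05, edgeR adjusted p = 0.000553).

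Among the cytokine ligands, 2 of 8 tested genes rose and 1 fell over the mean of the lines. IL12A, a subunit of interleukin 12, fell from 7.05 CPM in control to 2.20 to 2.77 CPM in the lines (log2 -1.43, SE 0.14, edgeR adjusted p = 7.51e-05). CLCF1, a gp130 cytokine, rose (log2 0.61, SE 0.10, edgeR adjusted p = 0.00207). Of the ubiquitin ligase partners of the SOCS box, 1 of 10 rose and 1 fell. RNF7, the RING protein, rose (log2 0.24, SE 0.04, edgeR adjusted p = 0.00268) and was lost without control replicate 2 (0.0744) and with the controls summed (0.0585). CUL5, the cullin, had a log2 change of -0.23 (SE 0.08, edgeR adjusted p = 0.0447), which was lost without control replicate 1 (0.175), control replicate 2 (0.289), InsE replicate 2 (0.0515), InsF replicate 2 (0.0544), InsG replicate 2 (0.0623) or either InsH library (0.0636 and 0.0649), on library sizes alone (0.111), with limma on TPM (0.223) and with the controls summed (0.223). In InsE against the other lines none of these 10 and none of the 8 ligands passed (edgeR, with 2 and 1 at an unadjusted p under 0.05), and DESeq2 and limma also called 0.

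Other proteins with a SOCS box split, with 4 of 19 tested genes higher and 3 lower over the mean of the lines. SPSB1, a SOCS box protein of the SPRY family, fell from 4.38 CPM in control to 1.51 in InsE and 2.5 to 3.07 CPM in the other lines (log2 -0.89, SE 0.14, edgeR adjusted p = 0.00182). TULP4 fell to between 16.4 and 22.1 CPM from 28.1 (log2 -0.61, SE 0.05, edgeR adjusted p = 4.54e-05). WSB1, a WD repeat member, had 133 CPM in InsE and 101 to 111 CPM in the other lines (InsE against their mean log2 0.33, SE 0.05, edgeR adjusted p = 0.00154), but with limma on TPM its log2 difference was 0.012 (SE 0.064, adjusted p = 0.923). Of other inhibitors of the pathway, 1 of 12 rose and 3 fell. CBL, a ubiquitin ligase for receptor kinases, fell from 58.8 to between 40.8 and 46.3 CPM (log2 -0.44, SE 0.06, edgeR adjusted p = 0.000528). With limma on TPM the calls of TULP4 and CBL were lost (adjusted p = 0.0607 and 0.0633).

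Genes known as STAT5 targets had 1 of 11 higher and 3 lower over the mean (13.1% and 14.5% of all genes). In InsE against the other lines 4 were higher and 0 lower (11.4% and 12.8% of all genes). CCND2 had 466 CPM ± 14 (SD, n = 2) in InsE, 299 ± 6.9 in control and 322 to 344 CPM in the other lines (InsE against their mean log2 0.48, SE 0.04, edgeR adjusted p = 5.54e-05). BCL6, 1 of the genes named above with 4 motif matches, had 4.69 CPM in control and 3 to 4.24 in the lines (log2 -0.41, SE 0.12, edgeR adjusted p = 0.0295). This call was lost on library sizes alone (edgeR adjusted p = 0.0512), without the filter (0.0882) and with the DESeq2 test (0.285). Limma on TPM lost it too (0.712, at a log2 change of -0.20). It was also lost without control replicate 1 (log2 -0.35), control replicate 2 (-0.46) or InsG replicate 1 (-0.38), and with the controls summed (-0.42). Genes known as targets of STAT3 or of interferon had 2 of 8 higher and 2 lower over the mean. IRF1, an interferon-induced factor, had 27.8 to 31.7 CPM in InsF, InsG and InsH, 13.5 in control and 15.2 CPM ± 0.86 (SD, n = 2) in InsE (InsE against their mean log2 -0.96, SE 0.07, edgeR adjusted p = 1.28e-05). JUNB, an AP-1 factor, fell over the mean (log2 -0.96, SE 0.10, edgeR adjusted p = 0.00014).

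Of the receptor kinases and adaptors that family proteins are known to bind, 5 of 11 tested genes were called lower and 0 higher over the mean of the lines, where 14.5% of all genes were lower and 13.1% higher. The other 6 did not pass. The median log2 change of the 11 was -0.40 beside 0.01 over all genes, and GRB2, an adaptor, was at 0.04 (edgeR adjusted p = 0.58). KIT fell from 2340 CPM in control to between 1220 and 1460 CPM (log2 -0.80, SE 0.04, edgeR adjusted p = 2.78e-06). EGFR fell from 62.8 to between 35.8 and 48.8 CPM (log2 -0.57, SE 0.05, edgeR adjusted p = 3.1e-05). IRS1, the insulin receptor adaptor, fell from 13.6 to between 5.96 and 10.4 CPM (log2 -0.74, SE 0.10, edgeR adjusted p = 0.000735). Against the other lines 5 of 11 were lower in InsE (12.8% of all genes), KIT by a smaller margin (log2 -0.20, SE 0.05, edgeR adjusted p = 0.0132). Whether any of these levels bears on those of CISH or the SOCS genes was not tested.

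**Figure D5:**
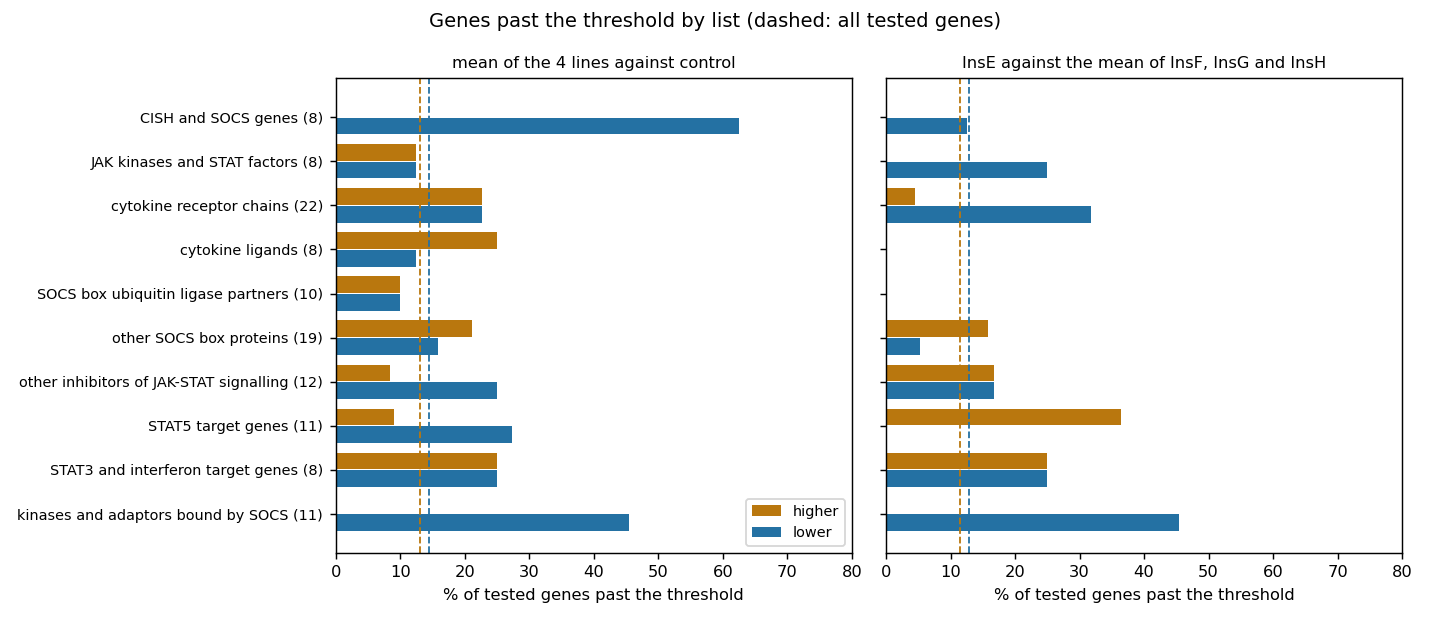
Share of tested genes called higher or lower (horizontal axis, percent) in the family and in each of the 9 pathway lists, for the mean of the 4 lines against control and for InsE against the mean of the others, with dashed lines for all tested genes (13.1% and 14.5%, then 11.4% and 12.8%) and the number tested in brackets. The family and the bound kinases and adaptors have lower calls and no higher ones in both panels.

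SOCS2 and CISH had the largest spread of group means in the family (SD of log2 CPM 0.716 and 0.341), and the tested genes with the nearest pattern over the 10 libraries were looked up among 10104 candidates by root mean square difference of centred log2 CPM. Nearest to SOCS2 were CPM (the gene of carboxypeptidase M, at 0.158), CYP1B1 (0.173) and DSE (0.178). Carboxypeptidase M transcripts were counted at 9.77 CPM in control, 5.21 in InsE and 13.5 to 14.0 in the other lines. Nearest to CISH were NR2F1 (0.132), SPATA13 (0.136) and the read-through gene C15orf38-AP3S2 (0.152). NR2F1, a nuclear receptor gene, had 9.89 CPM in control and 5.57 to 6.59 CPM in the lines. This nearness is a description over libraries that share depth and controls, and has no p.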

How the data were processed

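The labels put 10 libraries in 5 groups of 2. Per the labels' protocols, poly(A) RNA was made into NEBNext Ultra II libraries. Per the submitters' processing notes, the tools were STAR 2.5.3, RSEM 1.3.2 and DESeq2 1.38.3 with hg38. For the annotation release and strand setting, the sources give nothing. Each deposited table holds the authors' RSEM estimates per gene: expected counts, TPM and lengths. A summary table of 10 further columns, whose names match no label, was not used.

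Members and lists were chosen with earlier results of these data known. Some listed genes are not reported here and were left out of the lists' counts. Expected counts were rounded and tested with edgeR 4.0.16 (R 4.3.3): TMM scaling, filterByExpr with a minimum count of 10, robust quasi-likelihood fit over all 10 libraries without a replicate block, two-sided, Benjamini-Hochberg over 15554 genes, threshold 0.05. CPM use TMM library sizes, and TPM levels are compared between genes. Library totals ran from 9399554 to 42499885 counts. In the lists, genes outside the family were named from the picks of a rule, not all of which are described. The rule took, in each list, up to 3 called genes with the largest change over the mean of the lines. It also took up to 2 called genes that differed most clearly among the lines, then the 3 nearest patterns to the 2 most variable members. GRB2 was named besides, as a gene that did not pass. Alternatives were other scalings, no filter, DESeq2 1.42.0, limma 3.58.1 on log2(TPM + 1), a replicate block, the control libraries summed and each library left out. The script was tested on simulated counts. Positions are from GENCODE 29 by Ensembl identifier (58216 of 58381 rows matched), and promoter windows from RefSeq (5 of 8 members matched).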

Additional observations from a re-analysis of the deposited data

Results flagged for a closer look

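These genes differed among the 4 lines by the edgeR test of that difference (adjusted p under 0.05, 13.2% of all tested genes). Some of them were named because this same test called them, so their number cannot be set beside that share. In the family it was SOCS2 (adjusted p = 0.00039), lowest in InsE. Of the named kinases, STAT factors and receptor chains, the values were JAK1 0.0339, STAT3 0.00236, IL13RA1 0.00452 and IL6ST 0.00836 (edgeR adjusted p). All 4 had their lowest group mean in InsE. Among the other SOCS box proteins they were SPSB1 0.0275, TULP4 0.0151 and WSB1 0.00931, and among the other inhibitors SH2B3 0.0378 and CBLB 0.041 (edgeR adjusted p). STAT target genes gave CCND2 0.000459, ID1 0.0443, CCND1 1.16e-05, JUNB 0.0184, IRF1 0.000104 and CEBPB 0.000126 (edgeR adjusted p). CCND2, CCND1 and CEBPB had their highest group mean in InsE. Of the kinases and adaptors it was IRS1 (0.0217) and EGFR (0.00652), both lowest in InsE (edgeR adjusted p). Of the 10 fits without 1 library, JAK1 (0.0512 to 0.2) and SH2B3 (0.0523 to 0.154) failed in all 10, CBLB failed in 8 (up to 0.311) and IRS1 in 5 (up to 0.193). TULP4 failed in 2 of these fits (up to 0.157), and STAT3 (0.0504), IL13RA1 (0.0641), IL6ST (0.08), WSB1 (0.106) and EGFR (0.0548) in 1 each, always one without an InsE library (edgeR adjusted p). The DESeq2 test did not call TULP4 (0.15), SH2B3 (0.0595) or CBLB (0.441). With limma on TPM, JAK1 (adjusted p = 0.113), IL6ST (0.0959), TULP4 (0.334), WSB1 (0.93) and SH2B3 (0.134) were not called. Nor were CBLB (0.353), IRS1 (0.33), EGFR (0.176) and DSE (0.059). Without the filter CBLB was lost too (edgeR adjusted p = 0.0666). For ID1, JUNB, SPSB1 and FGF3 this difference was not rerun under the alternatives. FGF3 differed at 4.13e-05, and of the genes nearest to SOCS2 in pattern, CPM at 0.000108, CYP1B1 at 0.00023 and DSE at 0.00827 (edgeR adjusted p). CPM, CYP1B1 and DSE were picked for their likeness to SOCS2 over the same libraries. Their small p followed from that choice and is no separate result.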

How the results depend on the processing

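Of 952 member results under alternatives, 791 stayed on the same side of the threshold with the same sign, 100 were lost, 41 were gained and 20 changed sign, the cause of which was not tested. Called members in InsE, InsF, InsG, InsH and the mean of the lines numbered 5, 3, 2, 3 and 5 (edgeR). On library sizes alone InsF gave 1 and the mean 3. Without the filter InsF, InsG and InsH gave 5, 4 and 5 members, and the difference among the lines 3 members and 3660 genes instead of 2055. With the DESeq2 test InsF and InsH gave 0 members, with 3 and 4 at an unadjusted p under 0.05. That test called 2212 genes in InsF, 2065 in InsG, 1856 in InsH and 2479 in InsE against the other lines (edgeR 3461, 3163, 2863 and 3762). With limma on TPM the 4 lines and the mean gave 3, 0, 1, 0 and 2 members, with 2 at an unadjusted p under 0.05 in InsF and in InsH. Over all genes limma called 1781, 1674, 1318, 1347 and 2231, and 985 among the lines (edgeR 3611, 3461, 3163, 2863, 4296 and 2055).

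With the control libraries summed into 1, the same comparisons gave 3, 0, 1, 0 and 1 members, with 3 and 5 at an unadjusted p under 0.05 in InsF and InsH. Over all genes they gave 1638, 1566, 1226, 1179 and 1690, and 1278 among the lines (edgeR). Each fit without 1 library gave 1 to 5 members in InsE, 0 to 4 in InsF, 0 to 4 in InsG, 0 to 5 in InsH, 1 to 5 over the mean, 1 to 2 in InsE against the other lines and 1 among the lines. The counts of 0 came without a control library or without a library of the line itself, and had 2 to 5 members at an unadjusted p under 0.05 (edgeR). Over all genes those fits called 1429 to 3516 in InsE, 1446 to 3390 in InsF, 1170 to 3142 in InsG, 1108 to 2845 in InsH, 1501 to 4311 over the mean, 1956 to 3495 in InsE against the other lines and 700 to 1873 among the lines.

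Same-numbered replicates did not pair across all groups: deviations correlated at 0.0029 to 0.043 between control and the lines and at 0.39 to 0.46 between lines. A replicate block nonetheless gave 7 members in InsF, 4 in InsG, 5 in InsH, with 1 of these higher in each line (SOCS2), and 3 both in InsE against the other lines and among the lines. Over all genes the block gave 5935, 5886, 5769, 5317 and 6679 for the 4 lines and the mean, 5942 for InsE against the other lines and 5442 among the lines. With the block the InsE change of SOCS7 was 0.000869.

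Signs turned as follows (log2). Library sizes alone gave 0.036 for SOCS2 over the mean, 0.033 for SOCS4 in InsG and 0.053 for SOCS7 in InsE. With limma on TPM it was 0.12 for SOCS4 in InsH, 0.066 for SOCS7 in InsF, and in InsE against the other lines -0.13 for SOCS7 and -0.084 for TULP4. Without 1 library the range was -0.22 to 0.35 for CISH and -0.35 to 0.14 for SOCS4 in InsE against the other lines. It was -0.10 to 0.014 for SOCS2 over the mean, -0.21 to 0.11 for SOCS4 in InsG, -0.024 to 0.023 for SOCS7 in InsE and -0.19 to 0.070 for SOCS7 in InsF. Library sizes alone also moved the split of all calls over the mean from 2039 higher and 2257 lower to 2806 and 1699, and limma on TPM to 1434 and 797. The 39 counts of SOCS2 in InsE replicate 2 and 37 of CISH there limit the precision of those values.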
